A study of Mus musculus with 16 samples.

Results

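Chromosome 19 was examined in 16 DNA copy number profiles of mouse tumour lines, through all 6291 array probes whose file position lies on it, of 235402 probes on the array. These probes run from 3147156 to 61316020 on the mouse build mm8, over 58.17 Mb at a median spacing of 7158 bp. The lines are syngeneic, that is, each can be transplanted into immunocompetent mice of its own strain, and the study profiled them as models for immunotherapy research. Genomic DNA of 1 culture of each line was labelled with Cy5 and hybridised with a commercial mouse genomic DNA labelled with Cy3, whose strain the labels do not give. The value of a probe is the log2 ratio of line over reference, set so that the median of the autosomes of each array is 0. Values above 0 mark DNA that is relatively gained. Because of this centring, a value is relative to the other autosomes of the same line and is not a number of copies.

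The 3 Balb/C lines were CT26 (colon), 4T1 (breast) and Renca (kidney). P815, from mast cells, was the 1 line of DBA/2 background. The 12 C57BI6 arrays held MC38 (colorectal), LL2 (lung), Hepa1-6 (liver), PAN02 (pancreas), EL4 (blood), ID8 (ovary), the prostate lines TRAMPC1 and TRAMPC2, and the melanoma lines B16F0 ECAC, B16F0 ATCC, B16F10 NCI and B16F10 ATCC. TRAMPC1 and TRAMPC2 are labelled male and all other lines female. The B16 and the TRAMPC arrays carry related lines, so the 16 arrays stand for 12 families, 8 of them C57BI6. Every line had 1 array, and precision is limited by their number. Noise, measured between adjacent probes, was 0.22 to 0.41 in log2 over the arrays, and on chromosome 19 at least 99.6% of probes had a line signal well above background.

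Chromosome 19 is the smallest mouse autosome and is rich in genes. Among the genes it carries are Cd274 and Pdcd1lg2, which encode the ligands PD-L1 and PD-L2 of the inhibitory receptor PD-1, Jak2, a kinase that passes on cytokine signals, Fas, a death receptor, and Men1, a tumour suppressor. Gains and losses of a chromosome change the dose of all its genes together, while a focal change alters only a few. Of 35 tumour and immune genes looked up in RefSeq's table, 33 were on chromosome 19, and Kdm4c (chromosome 4) and Ccnd1 (chromosome 7) were not. That table gives no mm8 positions, so results are given by position and no gene is placed inside a part of the chromosome.

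The first question was how the dose of the whole chromosome differed between the lines. ID8 had the highest median, 0.70, which is a 1.63-fold ratio over the reference. TRAMPC1 followed at 0.44 (1.36-fold), and TRAMPC2 at 0.30 (1.23-fold). The next medians were 0.28 in 4T1, 0.28 in PAN02 and 0.26 in Hepa1-6. In ID8 and TRAMPC1 chromosome 19 was the highest of the 19 autosomes, in TRAMPC2 and 4T1 the second, and in PAN02 and Hepa1-6 it held rank 4. LL2 stood at 0.15, EL4 at 0.05, MC38 at 0.05, CT26 at -0.01 and P815 at -0.03. The B16 medians were -0.06 in B16F0 ECAC, -0.07 in B16F10 NCI, -0.11 in B16F0 ATCC and -0.12 in B16F10 ATCC. Renca was the lowest of the 16, at -0.33 (0.79-fold). The median was above 0 in 9 of 16 arrays and in 8 of 12 families.

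**Figure D1:**
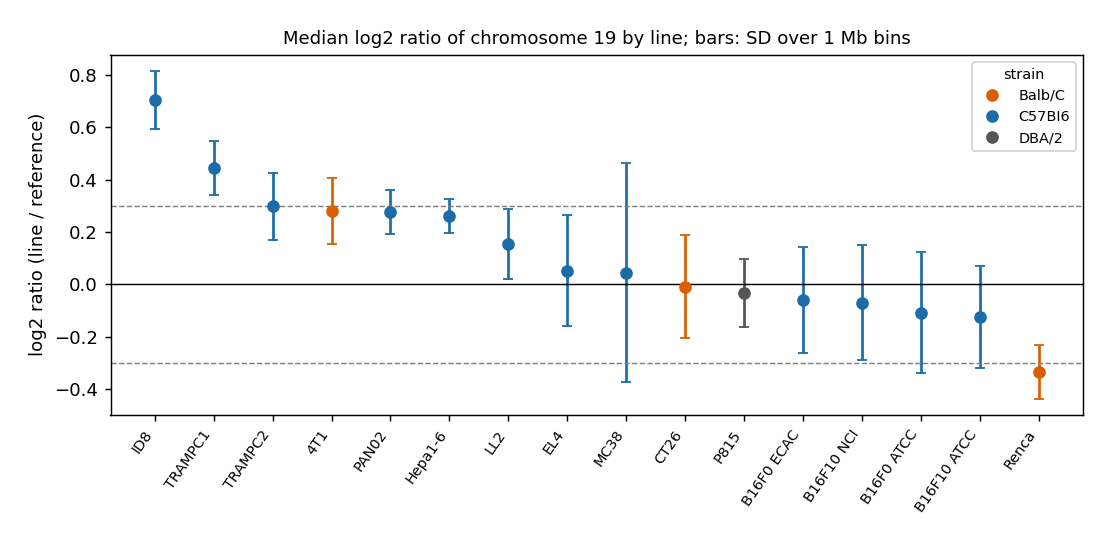
Median log2 ratio of line over reference on chromosome 19 for each of the 16 lines (points, coloured by strain; bars, SD over 59 bins of 1 Mb; dashed lines, the limits of 0.3 and -0.3 for a gain and a loss). ID8 stands highest at 0.70, Renca lowest at -0.33, and MC38 has the widest bar (SD 0.42).

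In this order only some neighbours were further apart than the spread along the chromosome. ID8 exceeded TRAMPC1 by 0.25 ± 0.05 (mean ± SD of the differences over 59 bins of 1 Mb), and TRAMPC1 exceeded TRAMPC2 by 0.15 ± 0.05. Hepa1-6 exceeded LL2 by 0.11 ± 0.10, and B16F10 ATCC exceeded Renca by 0.22 ± 0.21. The other neighbours in the order differed by less than 1 SD of their differences. Bins of 1 array are not replicates of a culture, so this compares the arrays only.

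Each profile was then divided into segments of constant level, and a segment mean of at least 0.3 was called a gain and one of -0.3 or less a loss. In ID8 every segment was a gain, with means from 0.66 to 0.83, so the whole chromosome was gained, against 17.6% of all autosomal probes of that line. TRAMPC1 was gained over its whole length, against 13% of its autosomal probes, at segment means from 0.41 to 0.57. PAN02 was also gained over its whole length, against 19.3% of its autosomal probes, as a single segment at 0.31 ± 0.0056 (SE over 6291 probes). Hepa1-6, likewise a single segment, had a mean of 0.29 ± 0.0044 (SE over 6290 probes), so 0.0% was called gained, against 11.3% of its autosomal probes. PAN02 thus lay just above the limit of 0.3 and Hepa1-6 just below it. TRAMPC2 was gained over 42.5% (13% of its autosomal probes), from 3147156 to 11117978 at 0.47 and from 34187203 to 48026014 at 0.42. In ID8, TRAMPC1, PAN02 and Hepa1-6 all 59 bins of 1 Mb were above 0. The lowest bin stood at 0.40 in ID8, 0.14 in TRAMPC1, 0.03 in PAN02 and 0.07 in Hepa1-6. No gene was placed by position, so no value is given for any of the 33 genes on this chromosome.

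The size of these gains moved with the background correction. With normexp correction of the raw signals the median was 0.31 in ID8, 0.06 in PAN02 and 0.07 in TRAMPC2, whereas it was 0.55 in TRAMPC1 and 0.28 in Hepa1-6. The number of lines gained along the whole chromosome was 3 at the limit of 0.3, 6 at 0.2 and 1, ID8, at 0.5.

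Hepa1-6 and PAN02, labelled as liver and pancreas lines, had chromosome 19 profiles that were close to each other in the processed signals. Their 59 bins of 1 Mb differed by 0.03 in the median and by at most 0.12, and the correlation across bins was 0.88. Related lines of the B16 and TRAMPC families gave median bin differences of 0.03 to 0.15 over 7 pairs, with correlations of 0.93 to 0.98. The 112 other pairs of different families gave 0.04 to 1.04, with correlations of -0.30 to 0.91. Their lowest difference, 0.044, was that of 4T1 and TRAMPC2. By bin differences Hepa1-6 and PAN02 were the closest of all pairs, with a median of 0.0334, against 0.0336 for B16F0 ECAC and B16F10 NCI. Their largest difference was also the smallest, 0.118, against 0.142 for B16F0 ATCC and B16F10 NCI. Their correlation lay below those of the related lines and within the range of the other pairs. The SD over bins was 0.064 in Hepa1-6 and 0.084 in PAN02, against 0.19 to 0.23 in the B16 arrays. The correlation over bins describes profiles that share probes and the reference DNA, and it has no test. With normexp correction their medians were further apart, 0.28 in Hepa1-6 and 0.06 in PAN02. Whether these arrays carry related DNA cannot be told from the files, and they are counted here as separate families, as labelled.

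Renca showed the opposite state to ID8. Of its probes on chromosome 19, 70.9% lay in lost segments, against 30.2% of its autosomal probes, and 0 of 59 bins were above 0. The longest lost segment ran from 12308178 to 41092334 at -0.38 ± 0.0057 (SE, 2891 probes). A lower one ran from 48544200 to 52715663 at -0.59 ± 0.024 (SE, 253 probes), in a part that was low in most lines, and it was not found after removal of the shared profile, when its probes averaged -0.42. The part after it, from 52743414 to 61316020, stood at -0.37 ± 0.0085 (SE, 915 probes). The parts that stayed above the limit for a loss were 3147156 to 9230379 at -0.23 and 41097505 to 48537681 at -0.24. Centring on the mode of the autosomes in place of the median lowered the Renca median to -0.46 and put the whole chromosome in lost segments. The 2 other Balb/C lines were not low: 4T1 was gained over 35.7% (9.26% of its autosomal probes), from 3147156 to 9230379 at 0.43, from 9497660 to 12258912 at 0.33 and from 41097505 to 48780726 at 0.41, and CT26 over 16.4% (12.1% of its autosomal probes). After removal of the shared profile 13.8% was gained in 4T1, from 3147156 to 9230379 at 0.33. The part from 9497660 to 12258912 then stood at 0.29, and that from 12308178 to 61316020 was 1 segment at 0.28. Both were under the limit for a gain. At a limit of 0.2, 96.1% was gained in 4T1. Lost segments held 0.286% of the probes in 4T1 and 0.238% in CT26, against 8.94% and 4.11% of their autosomal probes. All of these lie in the strain stretches described further on.

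MC38 had lost the distal part of the chromosome. From 50071644 to the last probe at 61316020, over 11.24 Mb, its mean was -0.73 ± 0.012 (SE, 1079 probes), a 0.60-fold ratio. Over the same probes the other 15 arrays lay between -0.41 in Renca and 0.71 in ID8, with a median of 0.14, and 0 of them were as low. The loss had 2 levels, -0.996 ± 0.024 from 50071644 to 52800330 (168 probes) and -0.69 ± 0.013 from 52823763 to the end (911 probes). These levels were not told apart with the penalty doubled or after removal of the profile shared by the lines. The loss began between 50035642 and 50071644, where the level before the break was 0.06 and the step was -1.05. No other family had a break within 0.5 Mb of this position, while the border between these levels was shared with 5 other families.

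The rest of chromosome 19 in MC38 was also uneven. It was gained from 3916437 to 11117978 at 0.36 ± 0.011 (SE, 1009 probes) and from 40966193 to 48026014 at 0.39 ± 0.015 (SE, 925 probes). Between them, a segment of 396 probes from 30203032 to 34179988 stood at -0.35 ± 0.016. In all, 30.8% of the probes were gained, against 19.2% of the autosomal probes of MC38, and 23.5% were lost, against 12.8%. After removal of the shared profile 0.0% was gained, with these parts at 0.21 and 0.27, and 17.2% lost. The break at 30203032 was then kept, but it opened a longer segment to 40964853 at -0.19 (1064 probes), which was not called a loss. A segment from 30203032 to 34179988 was not found then, nor with the penalty doubled or without dim probes. The distal loss ranged from -0.73 to -0.69 over the other settings of centring, background correction and penalty and after removal of the profile shared by all lines.

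EL4 was low over nearly the same distal part, but less so. Over the probes of the MC38 loss EL4 stood at -0.29 ± 0.012 (SE, 1079 probes), against -0.73 in MC38. Its break lay between 51154120 and 51196443, about 1 Mb beyond that of MC38 and in no other family. In EL4 only the piece from 51196443 to 52980789 passed the limit, at -0.58 ± 0.029 (SE, 79 probes), and the rest stood at -0.28 ± 0.013 (SE, 904 probes). Removing the shared profile turned this into 1 segment at -0.27, under the limit for a loss. In all, 1.26% of the EL4 probes were lost, against 11.2% of its autosomal probes.

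**Figure D2:**
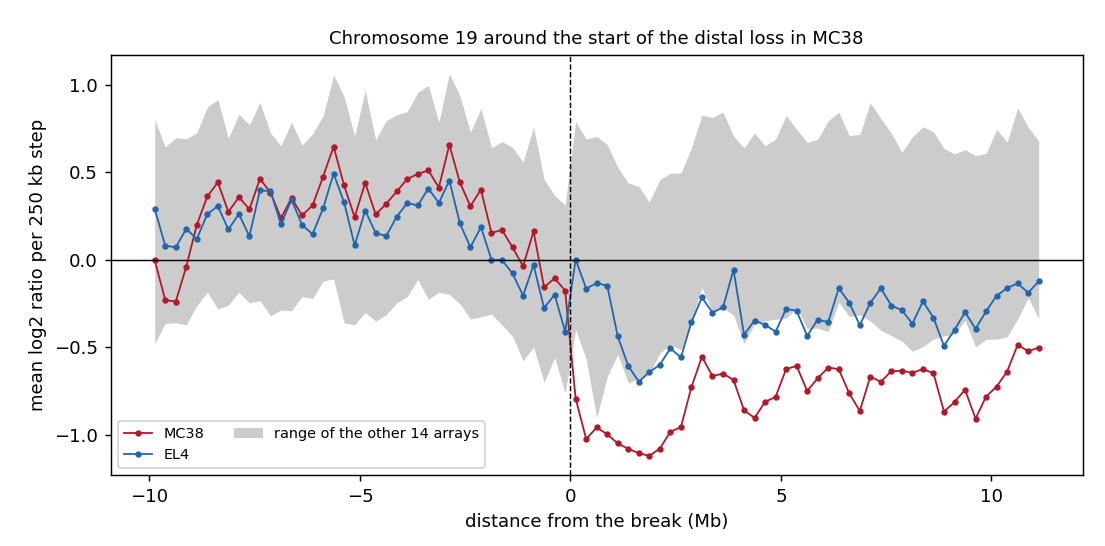
Mean log2 ratio in steps of 0.25 Mb against the distance in Mb from the start of the distal loss in MC38 (dashed line), for MC38 (red), EL4 (blue) and the range of the other 14 arrays (grey). MC38 drops by 1.05 at the break and stays low to the end, while EL4 falls about 1 Mb later and to a higher level.

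The 4 B16 arrays, of 2 sublines from 3 sources, shared 1 break that no other family had. In B16F0 ATCC, B16F10 NCI and B16F10 ATCC it lay between 23521104 and 23528664, and in B16F0 ECAC between 23528723 and 23543822. On its proximal side the segment stood at -0.40 in B16F0 ECAC, -0.44 in B16F0 ATCC, -0.39 in B16F10 NCI and -0.36 in B16F10 ATCC. Beyond it the levels were 0.06, 0.02, 0.03 and 0.01 in the same order. All 4 arrays therefore stepped up by 0.38 to 0.46 at the same place. Lost segments covered 18.5%, 21.8%, 21.7% and 38.3% of the probes in that order, against 13.7%, 13.9%, 20.8% and 16% of the autosomal probes. B16F10 ATCC was lost from the first probe to the break, over 20.37 Mb, as 1 segment of 2409 probes, while in the other B16 arrays the first part, up to 10868615 in B16F0 ATCC, 10890357 in B16F10 NCI and 12323779 in B16F0 ECAC, stood higher and was not called. With normexp correction lost segments remained in B16F0 ATCC alone, over 21.7% of its probes. After removal of the shared profile B16F0 ATCC and B16F10 NCI were also 1 segment from 3147156 to 23521104, so their first part no longer stood apart. This segment stood at -0.34 in B16F0 ATCC and at -0.297 in B16F10 NCI, just above the limit for a loss. Lost segments then covered 37.0% in B16F0 ECAC, 38.3% in B16F0 ATCC, 0.0% in B16F10 NCI and 38.4% in B16F10 ATCC.

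**Figure D3:**
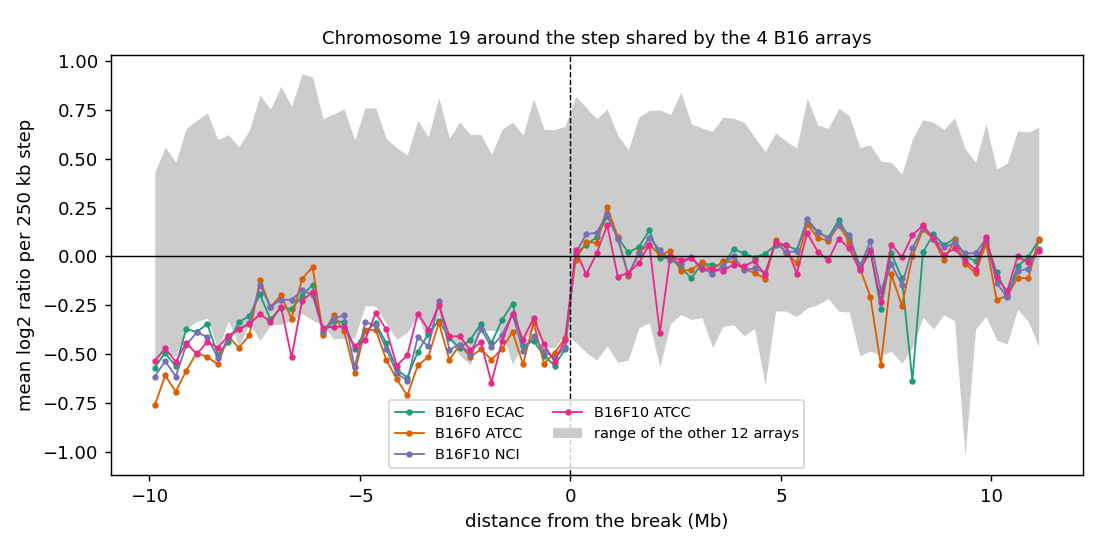
Mean log2 ratio in steps of 0.25 Mb against the distance in Mb from the break shared by the B16 arrays (dashed line), for the 4 B16 arrays (colours) and the range of the other 12 arrays (grey). All 4 lines step up by 0.38 to 0.46 at the break.

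B16F0 ECAC also held a small loss that the other B16 arrays lacked. From 31602516 to 31630750 its 5 probes stood at -1.997 ± 0.073 (SE), a 0.25-fold ratio, and all 5 were well above background. Over these probes the other B16 arrays stood at -0.44 in B16F0 ATCC, -0.47 in B16F10 NCI and -0.34 in B16F10 ATCC. The 20 probes that follow, from 31642464 to 31781561, stood at -0.44 in B16F0 ECAC and at 0.37, 0.38 and 0.40 in the other B16 arrays in the same order. The 5-probe window averaged -0.16 in B16F0 ECAC after normexp correction, and no segment was then found there.

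Other focal changes were found in 1 line each. EL4 gained 0.114 Mb from 27368509 to 27482693 at 0.95 ± 0.059 (SE, 17 probes), a 1.93-fold ratio. Over the same probes ID8 stood at 0.77, close to its level along the chromosome, and the other arrays at -0.35 to 0.45. The segment was 0.27% of the EL4 probes, against 4.44% of its autosomal probes in gained segments. This gain was found as its own segment in every setting tried except with the penalty doubled. P815 had 1 lost segment, 0.156 Mb from 32779983 to 32935787 at -1.07 ± 0.083 (SE, 23 probes), a 0.47-fold ratio, where the other arrays stood at -0.38 to 0.52. This loss was not found as a segment with the penalty doubled, nor after removal of the shared profile, when its probes averaged -1.01, nor with normexp correction, when they averaged -0.18. The segment was 0.366% of the P815 probes, against 4.28% of its autosomal probes in lost segments.

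Outside the strain stretches, CT26 had its largest step between 40745629 and 40751059, a border shared with 3 other families. It stood at -0.17 ± 0.0076 (SE, 2852 probes) from 12308178 to 40745629 and at 0.34 ± 0.013 (SE, 1034 probes) from 40751059 to 48780726. With normexp correction 0.111% of the CT26 probes were gained. LL2 was gained from 3147156 to 10868615 at 0.30 and from 36894975 to 48296805 at 0.31, together 38.4% of its probes, against 6.72% of its autosomal probes. These means lie at the limit of 0.3. With mode centring, with the penalty doubled and after removal of the shared profile, 0.0% of chromosome 19 was gained in LL2. After that removal LL2 was a single segment at 0.18, with no border. With normexp correction 28.9% was gained in LL2, and without dim probes 18.3%. The part from 3 to 11 Mb was above the array's own chromosome 19 median in 11 arrays, and that from 36 to 48 Mb in 16. These parts in LL2 are therefore not given as changes of this line alone.

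Many borders fell at the same places in lines of different families. The 16 profiles held 91 segments and 75 borders, and 51 of the borders lay within 0.5 Mb of one in at least 2 other families. Of the 41 borders with a step of at least 0.3, 11 were in 1 family only. The remaining 34 borders were smaller, and 27 of them were shared with at least 2 other families. Relative to the chromosome 19 median of each array, the part from 36 to 48 Mb was higher in 16 of 16 arrays, by 0.07 in the median over families. The part from 11 to 36 Mb was lower in 15 of 16 (median -0.05), and that from 48 to 53 Mb in 14 of 16 (median -0.18). When the median profile over the families was subtracted in 1 Mb bins, the search found 34 borders, all with a step of at least 0.3, and TRAMPC2 became 1 gained segment at 0.33. After this step the start of the distal loss of MC38 and the break shared by the B16 arrays were at the same positions, while the borders of MC38 at 11117978, 34179988, 48026014 and 52800330 were not found.

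The strain comparison asked where the 3 Balb/C lines differed from the 8 C57BI6 families, whose related arrays were averaged first. A model fitted with limma across 220255 autosomal probes, with Benjamini-Hochberg adjustment at 0.05, called 233 of 6278 probes on chromosome 19, or 3.71%, against 2.34% of all autosomal probes. Of these, 224 were lower in Balb/C (3.57% of chromosome 19, against 1.98% of all) and 9 were higher (0.143%, against 0.36%). The median difference over chromosome 19 was -0.23, against 0.004 over all autosomes, and it moved with the dose of the chromosome in the lines. Without Renca it was -0.08, and 141 probes were called (2.25%, against 1.71% of all). All 3 Balb/C lines were scanned in a batch with Hepa1-6, ID8 and B16F10 NCI. Within that batch 150 probes were called (2.39%, against 1.44% of all), 147 of them lower in Balb/C. With normexp correction 73 were called (1.16%, against 0.586% of all), of which 68 were lower. When each probe was taken relative to its own segment, which removes the dose of the chromosome, 310 were called (4.94%, against 3.88% of all), 249 lower and 61 higher, and the median difference over chromosome 19 was 0.04. With Hepa1-6 and PAN02 taken as 1 family 208 were called (3.31%, against 2.19% of all). The p-values measure the spread between lines.

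The lowest values lay in 1 stretch near the proximal end. Between 9220038 and 9519458, over 299 kb, 12 of 15 probes were called, all lower in Balb/C. The 3 that were not, at 9239304, 9314793 and 9497660, lay among them. The ends of the stretch are its first and last called probes, so a high share of calls between them is built in. Of the 39 probes examined in this neighbourhood 12 were called. The 5 neighbouring probes from 9253858 to 9299188 averaged -4.71 in CT26, -5.26 in 4T1 and -5.70 in Renca, against -0.23 to 0.85 in the 8 C57BI6 families. The groups did not overlap, in a run that was picked because its probes were called. All 5 probes were not well above background in any Balb/C line, so the difference is given as a bound: Balb/C was at least 16.1-fold lower (measured means -5.22 ± 0.49, n = 3, and 0.37 ± 0.30, n = 8, SD; limma, largest adjusted p of the 5 probes 8.33e-09). This bound holds for the processed signals only. With normexp correction the 6 probes from 9239304 to 9299188, which include the uncalled one at 9239304, averaged -0.47 in CT26, -0.89 in 4T1 and -1.13 in Renca. In the processed signals of the 5 probes P815 stood at 0.12, among the C57BI6 families and not with the Balb/C lines.

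The neighbouring runs were lower by less. At the 2 probes from 9220038 to 9230379 the Balb/C lines stood at -3.38 in CT26, -3.20 in 4T1 and -3.04 in Renca, against -0.41 to 0.77 in the C57BI6 families, at least 7.89-fold lower (limma, largest adjusted p 0.00101), with the first of the probes not well above background in any Balb/C line. Within the scan batch of the Balb/C lines this adjusted p was 0.0905. At the 4 probes from 9345452 to 9432791 they stood at -1.17, -1.21 and -1.60 in the same order, against -0.14 to 0.78, a difference of -1.69 (limma, largest adjusted p 0.0177). The probe at 9519399 was again not well above background, at least 13.5-fold lower in Balb/C than in C57BI6. At the probe at 9239304, between the first runs, Balb/C averaged 0.36 and C57BI6 0.43, so the low values do not fill the stretch without a gap. P815 lay between -0.22 and 1.09 at all 12 called probes of the stretch.

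**Figure D4:**
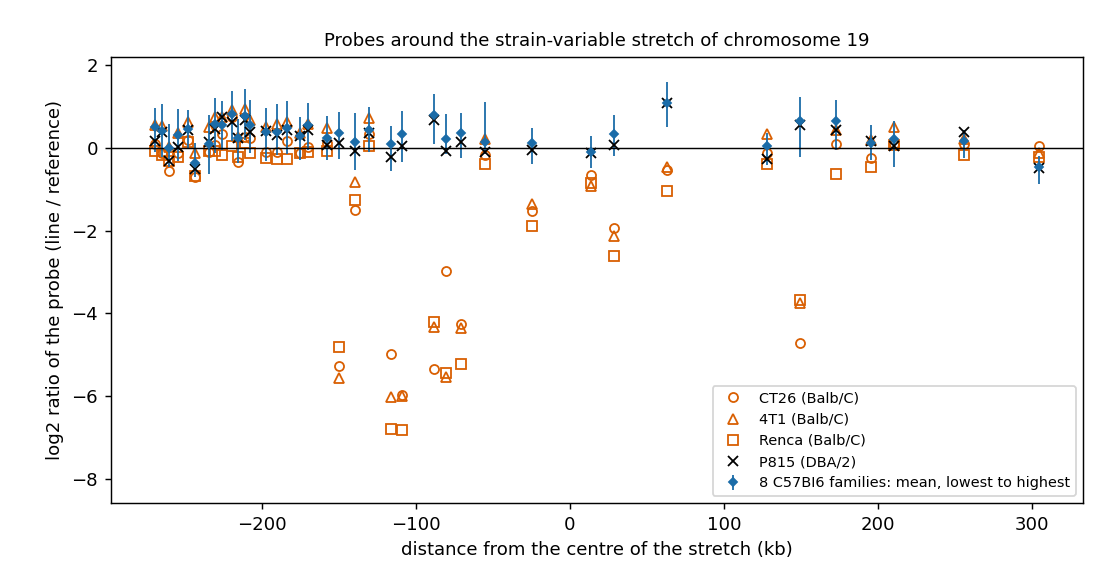
Log2 ratio of each probe around the stretch from 9220038 to 9519458, against its distance in kb from the centre of the stretch, for CT26, 4T1 and Renca (orange), P815 (crosses) and the 8 C57BI6 families (blue, mean with lowest to highest). The Balb/C lines fall together at 12 probes, with probes near 0 between them, where P815 stays with the C57BI6 families.

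Another stretch of this kind lay further along. From 12246362 to 12323779, over 77.4 kb, 10 of 12 probes were called lower in Balb/C. Its ends are also the first and last called probes, and 10 of the 29 probes examined around it were called. The 9 neighbouring probes from 12246362 to 12301001 averaged -2.97 in CT26, -2.87 in 4T1 and -2.98 in Renca, against -0.09 to 0.78 in the C57BI6 families, at least 6.94-fold lower (limma, largest adjusted p 1.66e-06). Of these 9 probes, 4 were not well above background in any Balb/C line. P815 stood at 0.17. These stretches were found as focal losses in CT26, 4T1 and Renca by the segmentation of single arrays. They were low in all 3 lines of that strain, while P815 and the 8 C57BI6 families stood near or above 0. In the Balb/C lines the segment from 9239304 to 9299188 was not found with normexp correction, a minimum of 10 probes or no dim probes. The segment of the other stretch, ending at 12301001, was not found without dim probes. It was found in 4T1 alone with normexp correction, at -1.12, and in CT26 alone with a minimum of 10 probes, at -2.67. With normexp correction its probes averaged -0.48 in CT26, -1.04 in 4T1 and -1.14 in Renca.

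P815 went with Balb/C at 1 of the next runs and with C57BI6 at the other. At 39387159 to 39400252, 2 probes averaged -1.71 in CT26, -1.83 in 4T1 and -2.01 in Renca, against 1.10 to 1.91 in the C57BI6 families, at least 8.01-fold lower (limma, largest adjusted p 0.000243). Of these probes, 1 was not well above background in any Balb/C line. P815 stood at -2.41. At 40063012 to 40067165, 2 probes averaged -1.37 in CT26, -0.71 in 4T1 and -1.16 in Renca, against 1.16 to 1.69 in the C57BI6 families, a difference of -2.48 (limma, largest adjusted p 3.62e-06). With the spots that were not well above background in single Balb/C lines at their bound, Balb/C was at least 4.70-fold lower. P815 stood at 1.36. At both places the C57BI6 families were above the reference DNA and the Balb/C lines below it.

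In all, 72 of the called probes lay in 27 runs of at least 2 neighbours, each lower in Balb/C, and 161 stood alone. The mean difference of the runs went from -5.59 to -0.72, and 16 runs were past 1 in size. P815 was nearer to the Balb/C mean in 14 of the 27 runs and nearer to the C57BI6 mean in 13. With normexp correction 4 of the 5 runs of largest size had a probe that was no longer called, and the first of them had an adjusted p of 0.0852 with a difference of -1.30. The other run, at 9220038, kept an adjusted p of 0.0287.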

How the data were processed

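DNA of 16 lines was compared with 1 reference DNA on 2-colour Agilent arrays, 1 array per line. The deposited spot intensity values came from Agilent Feature Extraction 10.7.3.1, background-subtracted, detrended and scaled between dyes by a linear factor, per the file headers. The deposited log10 ratios of single spots and the log2 values of the authors' series table were used as checks, and the table as an alternative. Flags (other values of 0 or 1) for outliers and background came with the deposited files.

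Computed here: log2 of red over green processed intensity, outlier-flagged and control spots left out, repeat spots averaged, each array centred on its autosomal median, with no loess or quantile step. Profiles were segmented by an exact change point search (penalty 6 times squared noise times the log of the probe number, at least 5 probes, probes limited to 3 noise SDs around a running median of 5). Focal means under 5 Mb and a whole-chromosome gain at least 90% of probes. SEs over probes measure noise along the genome, not the spread between cultures. Bounds ("at least") replace signals not well above background by the lowest signal that is. They hold for the processed signals only, not for normexp correction. limma 3.58.1 (lmFit, eBayes) compared strains, with P815 left out because its strain has 1 line. The segmentation and the limma fit were tested on simulated data.

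Named were called segments, focal segments past 1, and the 5 largest strain runs of neighbouring called probes; other regions were named after their values were seen. The members, the gene list and the regions were chosen with earlier results of these data known. Alternatives were centring on the mode, normexp with offset 50 on median spot and background signals (the files used hold no mean signal), other thresholds, a doubled penalty, a minimum of 10 probes, no dim probes, scan batch, and each strain line or family left out. Removal of the shared profile was chosen after seeing the data.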

Additional observations from a re-analysis of the deposited data

How the results depend on the processing

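Medians of chromosome 19 moved by less than the spread along the chromosome in all 16 arrays with the series table, with outlier spots kept, without dim probes and with the mean of the probes. Normexp moved 4 of them, PAN02 (0.0583), TRAMPC1 (0.5535), TRAMPC2 (0.0661) and ID8 (0.3074), and mode centring moved Renca (-0.4584). The cause was not tested. The count of arrays gained along the whole chromosome was 3, against 6 at a threshold of 0.2 and 1 at 0.5. Arrays with at least 10% of it gained numbered 8, against 2 at 0.5 and 5 with the shared profile removed, and with at least 10% lost 6, against 1 at 0.5 and 3 with normexp. Steps of at least 0.3 numbered 41, against 26 with the penalty doubled and 21 with normexp. The strain calls were 233, against 150 within the scan batch of the Balb/C lines, which has fewer arrays, and 73 with normexp. With scan batch as a block, which keeps all families, 162 were called (2.58%, against 1.10% of all autosomal probes). The median strain difference over chromosome 19 was then -0.46. Leaving out 1 line or family gave 141 calls without Renca (2.25%, against 1.71% of all autosomal probes) to 243 without 4T1 (3.87%, against 1.93%). Lower calls were 224, against 147 within the batch and 68 with normexp, and 134 to 240 with 1 line or family left out. Higher calls were 9, against 2 with scan batch as a block, 3 within the batch, 5 with normexp and 61 relative to own segments, and 3 (without 4T1) to 10 with 1 line or family left out. The distal loss of MC38 kept its direction and call in every setting run. No called value changed sign. The medians of CT26 (0.0323 with mode centring) and MC38 (-0.0018 with the mean of the probes) crossed 0, the median strain difference over chromosome 19 was -0.23 and 0.04 relative to own segments, and with normexp ID8 lay below TRAMPC1 and PAN02 below Hepa1-6. No paired analysis was possible because the replicate numbers only name lines in order and pair no Balb/C line with a C57BI6 line.

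Limits: 1 array per line gives no spread between cultures. Ratios are relative to each line's own autosomes, no copy number was measured by another method, and at probes not well above background they are bounds. Relative to own segments, runs that form a segment of their own lose their call by construction, such as that at 9253858 (largest adjusted p 0.9306).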

Other observations

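Of the 27 runs of probes lower in Balb/C, 7 lay between 24219780 and 25089937, and P815 was nearer to the Balb/C mean in all 7 of them. This window was chosen after the values were seen. The largest of these runs was at 24786941 to 24792264, where CT26 stood at -2.35, 4T1 at -1.76 and Renca at -2.39, P815 at -2.14 and the C57BI6 families between -0.17 and 0.41.

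After removal of the shared profile, 2 more short losses appeared. In Renca, 7 probes from 38234435 to 38281071 averaged -1.32 before and -1.36 after it. In B16F10 ATCC, 5 probes from 45282604 to 45301816 averaged -1.99 before and -2.07 after it, and -0.31 with normexp correction. P815 stood at -1.76 over the same probes, and the other 14 arrays at -0.39 to 0.72. Both were missed by the search on the profiles as measured.

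Probes that were low in all lines were fewer on chromosome 19 than over all autosomes. Only 1 of 6267 probes was at or below -0.5 in all 16 arrays (0.016%, against 0.191% of 219961 autosomal probes), at 16254452. At or above 0.5 in all arrays were 14 (0.223%, against 0.469%). These values are centred on the autosomes, so both counts include the level of the chromosome in each line. That level was 0.70 in ID8 and -0.33 in Renca, so the shares do not describe the probes alone.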
